A study of Mus musculus with 7 samples.

Results

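During erythroid differentiation of G1E-ER4 cells with and without the metal chelator DTPA, 77 of 55367 gene symbols rose with differentiation and stood higher still when DTPA was present. They were chosen by their measured levels in all 7 libraries, in TPM, a unit of transcript abundance that corrects read counts for transcript length and for sequencing depth. A gene was taken when its mean under DTPA was at least 5 TPM, when log2((control + 1)/(0 h + 1)) and log2((DTPA + 1)/(control + 1)) were both at least 1, and when the 3 DTPA and 3 control values did not overlap. Alpha-like and beta-like globin genes and 5 other symbols were left out by name. There were 85 genes that met the numerical rule, of which 8 were left out in this way. Because the rule used every library, the levels and steps of the 77 genes below are a description of how they were chosen and carry no test.

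The series, whose title names the zinc importer ZIP10, set 3 libraries of cells differentiated for 24 h with 50 µM DTPA beside 3 control libraries differentiated for 24 h without it and 1 library of undifferentiated cells at 0 h. G1E-ER4 cells come from mouse erythroid progenitors without functional GATA1 and hold a fusion of GATA1 with the part of the estrogen receptor that binds its ligand, so every group lacks the endogenous factor and has the fusion. Differentiation was started with 100 nM β-estradiol, and DTPA was present from that start. The cells are 1 cultured line in medium with erythropoietin and kit ligand, the labels call the replicates biological, and the 0 h group has no replicate, so each step from 0 h rests on 1 library at its low end.

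GATA1 drives the late erythroid programme, in which genes for hemoglobin, heme synthesis and the red cell membrane come on while proliferation and progenitor genes go down. The fusion protein becomes active when estradiol is added, so genes that rise within a day include direct targets of GATA1 and genes further downstream. DTPA binds zinc and other metal ions outside the cell and lowers the zinc available to cells. Zinc is a structural part of many transcription factors, GATA1 among them, and of many enzymes.

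Estimated depth was 17.6 to 21.2 M reads per library (M, 1e6 reads), and 10904 to 11268 genes reached 1 TPM. Libraries of a group correlated at 0.988 to 0.990 on the log2(TPM + 1) scale across genes, and genes are not independent replicates. Metallothionein 2, a zinc-binding protein whose gene follows cellular zinc, averaged 12.6 ± 0.992 TPM under DTPA and 2752 ± 153 TPM in control (SD, n = 3 each). All 15 erythroid markers were detected, with a summed level of 64800 to 82886 TPM under DTPA, 56273 to 60300 TPM in control and 14163 TPM at 0 h. Of 12 megakaryocyte markers, Gp1bb, Gp6, Ppbp and Vwf were among those at 0 in every library, and the summed level of the list was 42.7 to 52.0 TPM under DTPA, 9.39 to 12.8 TPM in control and 60.4 TPM at 0 h. Most of the sum under DTPA came from Gp1ba, at a mean of 26.5 TPM, and Itgb3, at 15.3 TPM. Gp5, Itga2b and Pf4 averaged under 1 TPM in both groups at 24 h. The 12 myeloid markers summed to 1.23 to 2.79 TPM under DTPA, 3.09 to 3.29 TPM in control and 7.16 TPM at 0 h, with 8 of them at 0 in every library, Mpo, Ctsg and Lyz2 included. The lists of mast cell, basophil and eosinophil markers and of lymphoid markers stayed under 5 TPM in sum in every library at 24 h. In a bulk library a change in the share of a cell type and a change in RNA per cell cannot be told apart.

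Of the 77 genes, GENCODE M21 classes 60 as protein coding, 3 as long intergenic RNA, 3 as processed pseudogenes, 2 as antisense RNA, 2 as sense intronic RNA and 2 as microRNA genes. A mitochondrial ribosomal RNA, a nuclear ribosomal RNA, a miscellaneous RNA and a model awaiting experiments were 1 gene each, and 1 symbol had no model. The 2 microRNA genes, Mir144 and Mir451a, lie 99 bp apart on chromosome 11 and come from 1 primary transcript. They are a classical erythroid pair: GATA1 switches on their transcription, and mice without the locus have red cells that are sensitive to oxidative stress. Their mature sequences are shown because they are the products through which these 2 members act, with the seed, bases 2 to 8, in capitals (RefSeq, GRCm38.p6, strand +).
miR-144-5p, chr11:78073010-78073032: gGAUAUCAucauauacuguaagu
miR-144-3p, chr11:78073047-78073066: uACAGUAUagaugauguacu
miR-451a, chr11:78073186-78073207: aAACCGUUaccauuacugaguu
No seed is shared among them, so the products of the pair would be grouped under 3 separate seeds. The libraries were made from polyadenylated RNA, so the values of these genes are reads of the precursor and not of the mature microRNA.

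RefSeq promoter entries were found for 49 of the 77 genes, with 68 windows of 250 bases before to 50 bases after a start, and 28 genes had none. The GATA motif, AGATAA or TGATAA on either strand, stood in 17.6% of these windows and in 18.6% of all 32851 windows of the table. The KLF motif, CCACACCC or CCCCACCC, stood in 16.2% of the windows of the 77 genes and in 13.0% of all windows. The core of the metal response element, TGCACNC or TGCGCNC, stood in 25% of the windows of the 77 genes and in 25.7% of all windows. For the core shared by NF-E2 and AP-1, TGANTCA, the shares were 4.41% of the windows of the 77 genes and 7.81% of all windows. For the E-box, CANNTG, they were 70.6% of the windows of the 77 genes and 72.3% of all windows, and for the ETS motif, CCGGAA, 13.2% of the windows of the 77 genes and 14.9% of all windows. All motifs were read on both strands, and each was counted without regard to overlap with the others. The shares are a description, and a window without a match says only that these letters are not in it. Of the 4 most abundant genes with an entry, 3 are shown as the 250 bases before their start, with GATA matches in capitals, so that the sequence ahead of the most abundant transcripts can be read (RefSeq, GRCm38.p6). The window of Neurl3 held 1 GATA match and overlaps an annotated exon of a longer transcript, so it is not shown.
Cox7a1, chr7:30183921-30184170, strand +: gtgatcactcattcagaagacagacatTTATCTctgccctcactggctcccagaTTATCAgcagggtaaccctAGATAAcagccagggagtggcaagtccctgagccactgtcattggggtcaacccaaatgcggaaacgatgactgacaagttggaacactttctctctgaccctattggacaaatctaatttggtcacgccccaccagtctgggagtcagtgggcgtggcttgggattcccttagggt
Ypel3, chr7:126776713-126776962, strand +: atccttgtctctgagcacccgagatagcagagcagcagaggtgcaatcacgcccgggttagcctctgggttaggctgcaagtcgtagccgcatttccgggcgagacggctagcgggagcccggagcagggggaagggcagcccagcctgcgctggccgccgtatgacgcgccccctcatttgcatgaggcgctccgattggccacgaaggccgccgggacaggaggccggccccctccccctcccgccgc
Gna15, chr10:81524226-81524475, strand -: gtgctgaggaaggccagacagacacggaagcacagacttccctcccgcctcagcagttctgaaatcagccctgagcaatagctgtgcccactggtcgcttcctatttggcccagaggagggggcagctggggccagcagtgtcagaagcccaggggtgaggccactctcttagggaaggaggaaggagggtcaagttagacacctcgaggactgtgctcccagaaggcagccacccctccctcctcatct
Cox7a1 held 3 GATA matches, at positions -223, -196 and -177 from the transcription start, and Ypel3 and Gna15 held none in this stretch.

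The 77 genes differed widely in level and moved alike by construction. Their median level was 40.9 TPM under DTPA, 13.2 TPM in control and 2.28 TPM at 0 h. Together they held 13082, 12811 and 13169 TPM under DTPA, against 4967, 4914 and 5046 TPM in control and 950.4 TPM at 0 h. There were 27 genes above 100 TPM under DTPA, 40 between 10 and 100 TPM and 10 below 10 TPM. At 0 h, 32 genes stood under 1 TPM, 6 of them listed at 0, while 20 already stood above 10 TPM. The lowest DTPA library was at least 2 times the highest control library in 55 of the 77 genes and under 1.5 times in 2 of them. Every control library stood above the 0 h library in 76 genes, the exception being Gm48905, which was listed at 0 at 0 h and in control 1.

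Background shares show how common such calls were. In a limma fit over 11147 genes, 21.7% were higher under DTPA than in control and 36.4% were lower at an adjusted p under 0.05. With median-of-ratios scaling the split was 3246 higher and 3127 lower, and with quantile normalization 3192 and 3111, against 2415 and 4059 in the deposited scale. The median log2 difference over all tested genes was -0.09 in the deposited scale, 0.02 with median-of-ratios scaling and 0.01 with quantile normalization. Requiring also a log2 difference of at least 1 left 3.52% higher. DTPA and control libraries did not overlap in 24.7% of genes in the higher direction and in 40.3% in the lower. In the comparison of control with 0 h, 15.1% of 11906 genes were higher with a log2 difference of at least 1 and 24.3% were lower by as much. All 77 genes passed the filters of both fits, and since the rule used both comparisons nothing is read from their calls. The comparisons share the control libraries, so the size of 1 step is not independent of the other. Of 1653 genes raised by differentiation, 85 met the rule before genes were left out by name, and 77 after. Beside the 85 stand 74 that DTPA lowered under the same thresholds turned round, with none left out by name. Of 292 genes raised by DTPA, 207 did not meet the threshold for differentiation.

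**Figure D1:**
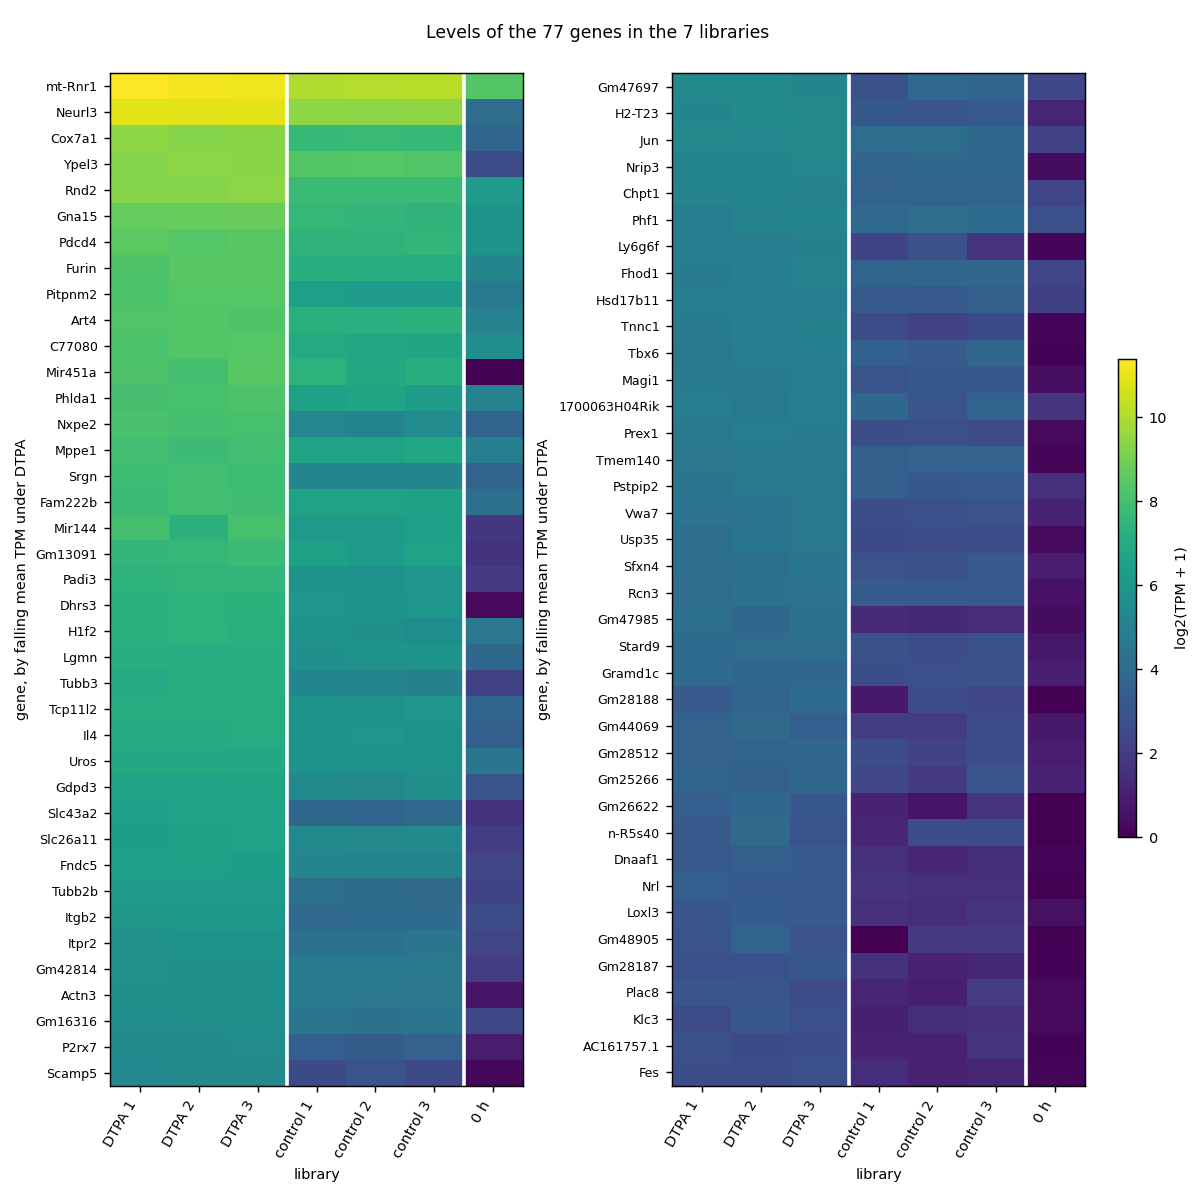
Levels of the 77 genes as log2(TPM + 1), 1 row per gene by falling mean under DTPA and 1 column per library, with the 3 DTPA libraries left, the 3 control libraries next and the 0 h library right. Every row darkens from left to right across the 3 groups, and the columns within a group look alike for most genes.

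The thresholds set the edges of the set. Nearest inside the minimum level was Fes, at 5.43, 5.04 and 5.93 TPM under DTPA, 1.78, 1.22 and 1.35 TPM in control and 0.13 TPM at 0 h. AC161757.1 followed, at 6.10, 4.81 and 5.51 TPM under DTPA, 1.13, 1.09 and 2.26 TPM in control and 0.08 TPM at 0 h, and then Klc3, at 5.09, 7.49 and 5.84 TPM under DTPA, 0.99, 1.81 and 1.87 TPM in control and 0.26 TPM at 0 h. Only Fuca2, a lysosomal fucosidase, met every other condition and fell short of this one, at 5.50, 4.41 and 4.70 TPM under DTPA and 2.22, 1.67 and 1.83 TPM in control. In all 4 genes every DTPA library stood above every control library.

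The smallest step with DTPA inside the set was 1.00 on the log2 scale, for Rcn3, followed by 1.01 for Ypel3 and 1.02 for Pdcd4. Each log2 difference given beside the values of a member is that of its group means, DTPA minus control, on the log2(TPM + 1) scale. Rcn3 had 16.0, 18.6 and 19.5 TPM under DTPA, against 8.91, 8.09 and 8.47 TPM in control and 0.49 TPM at 0 h (log2 difference 1.00). Outside, at 0.999, 0.998 and 0.997, lay Atg2a, Gm49024 and Ube2o. Atg2a had 143, 174 and 172 TPM under DTPA and 81.6, 83.5 and 78.0 TPM in control. Gm49024 had 22.3, 17.7 and 18.3 TPM under DTPA and 7.75, 9.96 and 9.94 TPM in control. Ube2o, a ubiquitin ligase that clears proteins during reticulocyte maturation, had 155, 181 and 184 TPM under DTPA and 89.7, 86.1 and 83.1 TPM in control. In these 3 genes too, every DTPA library stood above every control library.

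The smallest step with differentiation was 1.01, for Gm47985, then 1.02 for Klc3 and 1.04 for Loxl3, a copper-dependent lysyl oxidase. Under DTPA Loxl3 reached 7.17, 9.03 and 8.68 TPM, against 1.89, 1.75 and 2.23 TPM in the controls and 0.44 TPM at 0 h (log2 difference 1.65). Outside lay Relb, Snx9 and H2-D1, at 0.98, 0.96 and 0.94. Relb, a subunit of NF-kappa B, had 8.09, 10.3 and 10.5 TPM under DTPA, 3.05, 3.35 and 2.99 TPM in control and 1.09 TPM at 0 h. Snx9, a sorting nexin of endocytosis, had 259, 257 and 257 TPM under DTPA, 109, 104 and 108 TPM in control and 54.6 TPM at 0 h. H2-D1, a class I histocompatibility gene, had 209.9, 221 and 225 TPM under DTPA, 97.1, 97.5 and 85.4 TPM in control and 48.2 TPM at 0 h. In these 3 genes every DTPA library stood above every control library, and the controls lay a little under the required distance from 0 h.

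The narrowest gap between the lowest DTPA and the highest control library was 1.21 TPM, in n-R5s40, followed by Plac8 with 2.35 TPM and AC161757.1 with 2.55 TPM. n-R5s40 stood at 8.10, 14.2 and 6.74 TPM under DTPA, 1.33, 5.53 and 5.52 TPM in control and 0 TPM at 0 h (log2 difference 1.06). The levels of Plac8 were 7.39, 7.10 and 5.25 TPM under DTPA, 1.34, 0.97 and 2.90 TPM in control and 0.21 TPM at 0 h (log2 difference 1.47). Gm22355 and Snord71 met all other conditions and overlapped. Gm22355 had 8.97, 12.2 and 2.90 TPM under DTPA and 1.71, 3.57 and 3.56 TPM in control, and Snord71, a small nucleolar RNA, had 11.8, 0 and 4.91 TPM under DTPA and 1.94, 0 and 2.01 TPM in control. In both of them the lowest DTPA library stood below the highest control library.

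The steps were of unequal size across the set. The log2 difference between DTPA and control had a median of 1.42 and ran from 1.00 to 2.75, with 12 genes above 2 and 44 below 1.5. The log2 difference between control and 0 h had a median of 1.91 and ran from 1.01 to 7.16, with 35 genes above 2 and 13 above 3. The highest of these, in Mir451a, depends on the pseudocount because the gene was listed at 0 at 0 h, and the next was 5.70 in Ypel3. In 49 genes the step with differentiation was the larger one, and in 28 genes the step with DTPA was. The genes with the largest DTPA steps, Nxpe2, Scamp5, Slc43a2 and Srgn among those with a name, had differentiation steps between 1.56 and 2.43. The genes with the largest differentiation steps, Mir451a, Ypel3, Dhrs3 and Neurl3, had DTPA steps between 1.01 and 1.45. The rise reached in the controls made up 8.31% to 49.0% of the whole rise under DTPA, with a median of 31.7%, and the rule keeps this share under 50%.

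**Figure D2:**
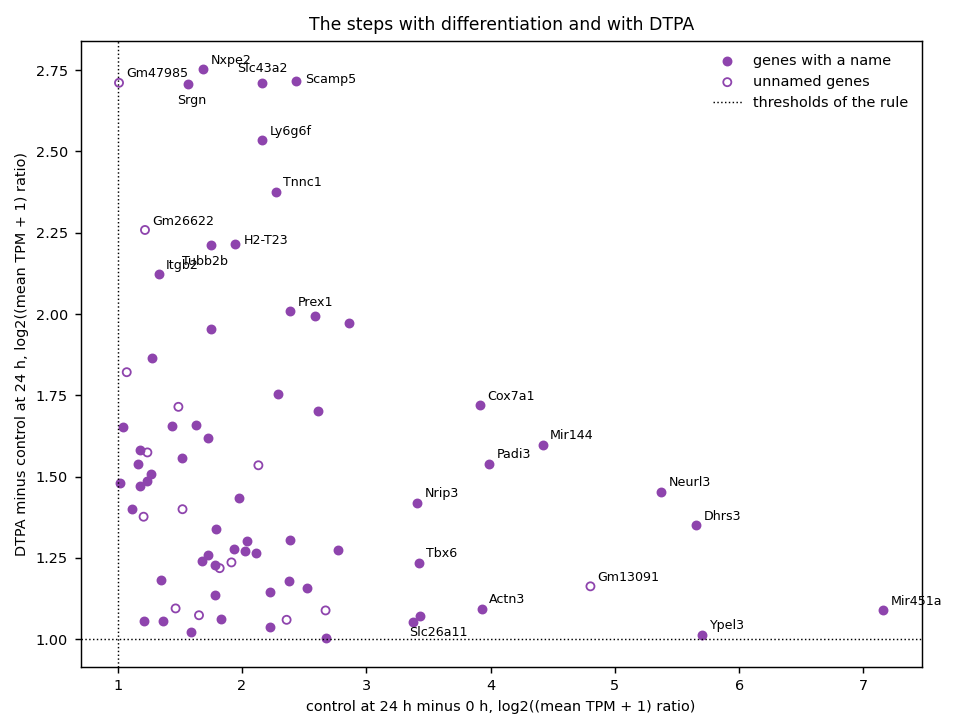
Each point is 1 of the 77 genes, with the log2 difference between control and 0 h on the horizontal axis and the log2 difference between DTPA and control on the vertical axis. Dotted lines mark the thresholds of 1. Nxpe2 stands highest at 2.75, Mir451a farthest right at 7.16, and the genes highest on the vertical axis all lie left of 3 on the horizontal one.

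The 2 microRNA genes of the set lie side by side. Mir451a had 299, 259 and 352 TPM under DTPA, against 162, 121 and 143 TPM in control and 0 TPM at 0 h (log2 difference 1.09). Mir144 stood at 256, 160.2 and 272 TPM under DTPA, 69.8, 70.1 and 85.5 TPM in control and 2.56 TPM at 0 h (log2 difference 1.60). The precursor reads of both genes were higher in all DTPA libraries than in all control libraries, and the spread among DTPA libraries was wide for Mir144, whose second library stood apart at 160.2 TPM. These levels rest on few reads, an estimated 127 to 182 under DTPA and 51 to 71 in control for Mir451a, and 72 to 129 under DTPA and 27 to 33 in control for Mir144. Mir451a shares all of its 72 bp with Mir451b on the other strand, and Mir451b was listed at 0 in every library. 3 transcripts known as targets of these microRNAs were looked at beside them, chosen after the members were seen. Cab39, a target of miR-451 in mouse heart and tumour cells, averaged 123 ± 4.29 TPM under DTPA and 148 ± 2.30 TPM in control (limma log2 difference -0.27, adjusted p = 0.00087). Nfe2l2, a target of miR-144, averaged 146 ± 3.02 TPM under DTPA and 156 ± 7.05 TPM in control, and Ywhaz, a target of miR-451 in mouse erythroid cells, averaged 119 ± 2.22 TPM under DTPA and 124 ± 2.11 TPM in control. Neither passed limma's threshold (adjusted p = 0.0968 and 0.177). Under median-of-ratios scaling 1 of the 3 transcripts was lower and none higher, while under quantile normalization 1 was higher and none lower. Over all tested genes 36.4% were lower in the deposited scale. A call in 1 of 3 is near that share, and nothing on microRNA action is read from it.

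Genes of red cell biology in the strict sense were few among the 77, which leave out globin genes by name. Globin genes were among the 8 genes that met the numerical rule and were left out. Under DTPA Art4 reached 316, 321 and 308 TPM, against 149, 149 and 161 TPM in the controls and 32.0 TPM at 0 h (log2 difference 1.04). Art4 encodes an ADP-ribosyltransferase family protein on the red cell surface that carries the Dombrock blood group in humans. The levels of Uros were 117, 115 and 118 TPM under DTPA, 55.1, 54.5 and 56.8 TPM in control and 20.9 TPM at 0 h (log2 difference 1.06). Uros encodes uroporphyrinogen III synthase, the fourth enzyme of heme synthesis. Both were tight within groups, and the lowest DTPA library was 1.92 times the highest control library for Art4 and 2.02 times for Uros. Of the 23 other genes of heme synthesis and transport that were tested, 4 were higher and 13 lower under DTPA, with a median log2 difference of -0.40, and under both median-of-ratios scaling and quantile normalization 7 were higher. Alad, the second enzyme of the pathway, averaged 317 ± 21.5 TPM under DTPA and 1016 ± 30.9 TPM in control (limma log2 difference -1.68, SE 0.0554, adjusted p = 3.9e-07). Slc25a39, a mitochondrial carrier for glutathione, and Blvra, biliverdin reductase, were further examples, with log2 differences of -1.38 and -0.93 (limma adjusted p = 1.5e-06 and 3e-05). Uros was the sole member on that list.

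3 members belong to mitochondria. mt-Rnr1 had 2682, 2348 and 2289.7 TPM under DTPA, against 1060.0, 1112 and 1156 TPM in control and 322 TPM at 0 h (log2 difference 1.14). mt-Rnr1 is the 12S ribosomal RNA of the mitochondrial genome and had the highest TPM of the set. The libraries were made from polyadenylated RNA, so these values are of what that selection kept and not of all this ribosomal RNA. The same holds for mt-Rnr2 below. Cox7a1 stood at 696, 633 and 653 TPM under DTPA, 195, 209 and 196 TPM in control and 12.3 TPM at 0 h (log2 difference 1.72). Cox7a1 is the heart and muscle form of subunit 7A of cytochrome c oxidase, the last complex of the respiratory chain. Sfxn4, a sideroflexin of the mitochondrial inner membrane linked to iron-sulfur clusters and complex I, averaged 18.2 ± 2.65 TPM under DTPA and 6.99 ± 1.14 TPM in control, with 0.85 TPM at 0 h. Relatives of these genes were mixed. The 16S ribosomal RNA mt-Rnr2 averaged 1487 ± 136 TPM under DTPA and 692 ± 16.8 TPM in control (limma log2 difference 1.10, adjusted p = 6.6e-06) and had 832 TPM at 0 h, and it rose with DTPA and showed no higher level in control than at 0 h. Of the 20 other mitochondrially encoded genes tested, mt-Rnr2 included, 5 were higher under DTPA, none was lower and 15 were not called (9 were higher under median-of-ratios scaling), and mt-Nd1 and mt-Nd2 had log2 differences of -0.01 and 0.05 (limma adjusted p = 0.927 and 0.663). Of 11 other cytochrome c oxidase subunit genes, 1 was higher, Cox8a, and 8 were lower, with a median of -0.27, and 5 were lower under both median-of-ratios scaling and quantile normalization. Cox7a2, the form of subunit 7A made in most tissues, averaged 243 ± 12.2 TPM under DTPA and 350.3 ± 2.92 TPM in control (adjusted p = 3.8e-05). Of 3 other sideroflexin genes, Sfxn1 and Sfxn2 were lower and Sfxn3 was not called.

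**Figure D3:**
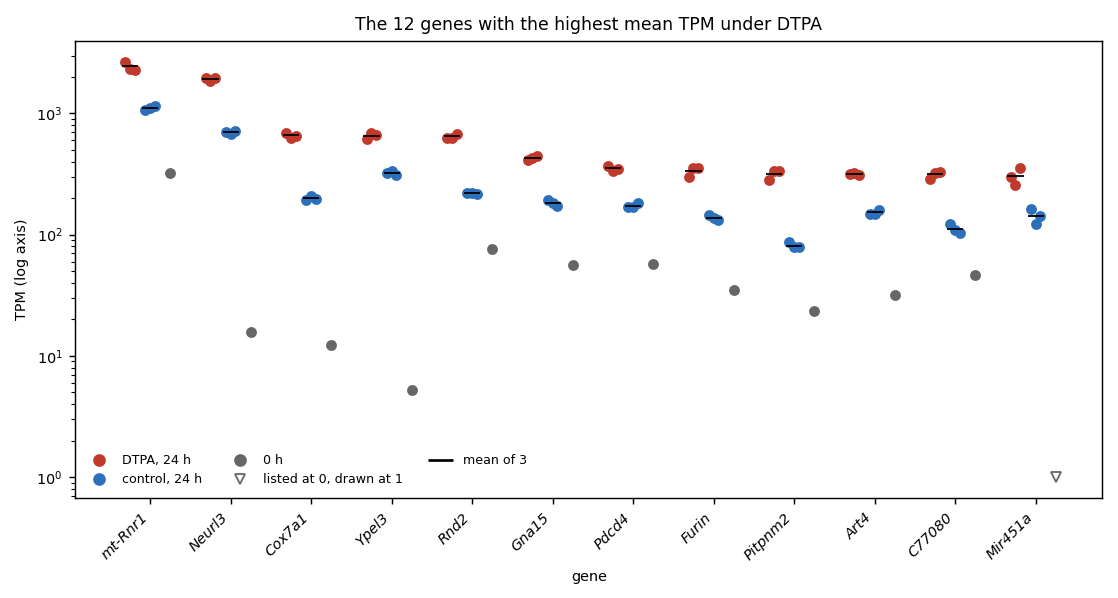
Levels in TPM on a log axis for the 12 genes with the highest mean under DTPA, with the DTPA libraries in red at the left of each gene, control in blue and 0 h in grey, and a bar at each mean of 3. The 2 groups at 24 h are apart for every gene, from 2290 TPM and above under DTPA for mt-Rnr1, and Mir451a was listed at 0 at 0 h.

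Genes of protein turnover, growth arrest and translation included the most abundant nuclear gene of the set. Under DTPA Neurl3 reached 1954, 1853 and 1942 TPM, against 705, 681 and 712 TPM in the controls and 15.9 TPM at 0 h (log2 difference 1.45). Neurl3 encodes a RING-type ubiquitin ligase of the neuralized family. The levels of Ypel3 were 610.0, 685 and 658 TPM under DTPA, 323, 332 and 311 TPM in control and 5.22 TPM at 0 h (log2 difference 1.01). Ypel3 belongs to the Yippee-like family of small metal-binding proteins and has been tied to growth arrest in human cells. Pdcd4 had 369.8, 335 and 351 TPM under DTPA, against 168, 169 and 181 TPM in control and 56.8 TPM at 0 h (log2 difference 1.02). Pdcd4 binds the helicase eIF4A and holds back translation initiation. The controls of Neurl3 and Ypel3 stood far above 0 h, and those of Pdcd4 moderately so. The 4 other Yippee-like genes all rose with differentiation in limma's fit, and 3 of them, Ypel2, Ypel4 and Ypel5, were higher under DTPA, with log2 differences of 0.84, 0.89 and 0.28 (adjusted p = 6.9e-06, 0.00027 and 0.00122). Ypel1 was lower at -0.35 (adjusted p = 0.0211), a call that was lost under median-of-ratios scaling. Phlda1, a protein with a pleckstrin homology-like domain often induced when growth signals change, averaged 277 ± 17.7 TPM under DTPA and 87.3 ± 11.6 TPM in control, with 31.6 TPM at 0 h. Usp35, a deubiquitinase, averaged 19.8 ± 2.97 TPM under DTPA and 5.17 ± 0.235 TPM in control, with 0.26 TPM at 0 h.

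6 members are transcription or chromatin factors, all at modest levels except H1f2. Jun stood at 39.5, 38.5 and 40.4 TPM under DTPA, 15.9, 16.1 and 12.9 TPM in control and 3.61 TPM at 0 h (log2 difference 1.34). Jun is a subunit of AP-1, the dimer that answers growth and stress signals. Under DTPA Tbx6 reached 22.6, 27.8 and 29.1 TPM, against 10.6, 8.55 and 12.9 TPM in the controls and 0.09 TPM at 0 h (log2 difference 1.23). Tbx6 is a T-box factor of the early mesoderm. The levels of Nrip3 were 34.6, 35.8 and 37.3 TPM under DTPA, 11.97, 13.3 and 13.1 TPM in control and 0.3 TPM at 0 h (log2 difference 1.42). Nrip3 is named for its interaction with nuclear receptors. Tbx6 and Nrip3 were close to 0 before differentiation, whereas Jun was already read at 0 h. H1f2, a linker histone, averaged 153 ± 7.56 TPM under DTPA and 50.6 ± 4.23 TPM in control, with 21.8 TPM at 0 h. These are levels in polyadenylated RNA, and H1f2 transcripts without a polyA tail were not measured. Phf1, a Polycomb-like partner of the histone methyltransferase complex PRC2, averaged 32.0 ± 3.74 TPM under DTPA and 14.9 ± 1.07 TPM in control, with 5.87 TPM at 0 h. Nrl, a leucine zipper factor of the Maf family known from rod photoreceptors, was listed at 0 at 0 h and averaged 8.77 ± 0.650 TPM under DTPA and 2.09 ± 0.214 TPM in control. Among the other AP-1 genes, Jund was higher under DTPA (132 ± 5.39 TPM under DTPA against 68.2 ± 13.6 TPM in control, limma adjusted p = 0.00057) and Junb lower (78.1 ± 4.28 TPM under DTPA against 110.0 ± 20.9 TPM in control, adjusted p = 0.0158), and no AP-1 gene was called lower under median-of-ratios scaling or quantile normalization.

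Signalling genes ran from receptors and ligands to G proteins and kinases. Il4, the type 2 cytokine, averaged 129 ± 0.861 TPM under DTPA and 56.5 ± 3.03 TPM in control, with 10.1 TPM at 0 h. Fndc5, the precursor of the secreted peptide irisin, averaged 84.5 ± 2.78 TPM under DTPA and 34.3 ± 1.17 TPM in control. Furin had 301, 351 and 351 TPM under DTPA, against 144, 137 and 131 TPM in control and 35.3 TPM at 0 h (log2 difference 1.28). Furin is the proprotein convertase of the trans-Golgi network that cleaves precursors of growth factors, receptors and other proteins, and its DTPA libraries all stood above 300 TPM. The related convertases Pcsk7 and Mbtps1 were higher under DTPA by 0.21 and 0.27 on the log2 scale (limma adjusted p = 0.0223 and 0.00196). P2rx7, an ATP-gated ion channel, averaged 42.5 ± 1.32 TPM under DTPA and 9.91 ± 0.905 TPM in control, with 0.82 TPM at 0 h, and its relatives P2rx1 and P2rx4 were also higher under DTPA, by 1.34 and 0.48 (adjusted p = 0.00123 and 6.6e-05).

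Inside the cell, Gna15 stood at 416, 427 and 446 TPM under DTPA, 192, 181 and 171 TPM in control and 56.1 TPM at 0 h (log2 difference 1.24). Gna15 encodes an alpha subunit of the Gq class of G proteins, made mainly in blood cells, which activates phospholipase C. Under DTPA Rnd2 reached 629.7, 631 and 677 TPM, against 219.6, 219 and 217 TPM in the controls and 75.7 TPM at 0 h (log2 difference 1.56). Rnd2 is an atypical small GTPase that stays bound to GTP. The levels of Prex1 were 23.1, 26.3 and 25.3 TPM under DTPA, 5.48, 5.81 and 5.02 TPM in control and 0.23 TPM at 0 h (log2 difference 2.01). Prex1 is an exchange factor that activates Rac downstream of G proteins and phosphoinositide 3-kinase. Gna15 and Rnd2 were well expressed before differentiation, and Prex1 was nearly silent then. Itpr2, a receptor for inositol trisphosphate that releases calcium from the endoplasmic reticulum, averaged 54.5 ± 1.73 TPM under DTPA and 19.6 ± 1.64 TPM in control, and its relatives Itpr1 and Itpr3 stayed under 1 TPM at 24 h. Fes, a tyrosine kinase of myeloid cells, was the gene with the lowest level in the set. Of 6 other G protein alpha subunit genes tested, Gna11 was higher under DTPA, and Gna13, Gnai2 and Gnas were lower.

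Surface proteins were among the genes with the largest DTPA steps. Nxpe2 had 274, 262 and 265 TPM under DTPA, against 38.2, 34.0 and 44.1 TPM in control and 11.3 TPM at 0 h (log2 difference 2.75). Nxpe2, a member of the neurexophilin and PC-esterase domain family, had the largest step with DTPA of the set, 2.75 on the log2 scale. Ly6g6f stood at 28.5, 27.4 and 30.6 TPM under DTPA, 4.04, 6.01 and 2.40 TPM in control and 0.15 TPM at 0 h (log2 difference 2.54). Ly6g6f encodes an immunoglobulin-like surface protein that is found on platelets in humans. Under DTPA Itgb2 reached 64.1, 67.0 and 66.4 TPM, against 13.8, 14.7 and 14.6 TPM in the controls and 5.10 TPM at 0 h (log2 difference 2.12). Itgb2 encodes the beta 2 integrin subunit, which leukocytes use for adhesion. The levels of H2-T23 were 36.6, 43.4 and 39.6 TPM under DTPA, 7.86, 7.18 and 8.35 TPM in control and 1.29 TPM at 0 h (log2 difference 2.22). H2-T23 encodes Qa-1, a nonclassical class I histocompatibility molecule. In all 4 genes the DTPA libraries lay close together and far above every control library, and in Ly6g6f the controls also differed widely among themselves. Of the 4 alpha subunits that pair with beta 2, none reached the level needed for the test between DTPA and control, and Itgal and Itgam were listed at 0 in every library at 24 h. Magi1, a scaffold of cell junctions, averaged 26.4 ± 1.68 TPM under DTPA and 7.44 ± 0.529 TPM in control. Plac8, a small cysteine-rich protein, was among the lowest members. Vwa7, with a von Willebrand factor A domain, averaged 20.4 ± 1.72 TPM under DTPA and 5.95 ± 0.454 TPM in control, and the membrane protein Tmem140 23.1 ± 0.808 TPM under DTPA and 10.6 ± 0.615 TPM in control. The marker sums given above stand beside these genes. The megakaryocyte sum, mostly Gp1ba and Itgb3 under DTPA, was higher under DTPA than in control, while the myeloid sum was lower. The part of such cells in the levels of Ly6g6f, Itgb2, Fes and Plac8 was not tested.

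Granule, vesicle and lysosome genes formed a further group. Srgn stood at 231, 246 and 229 TPM under DTPA, 35.4, 34.4 and 35.8 TPM in control and 11.2 TPM at 0 h (log2 difference 2.71). Srgn encodes serglycin, the proteoglycan core of secretory granules in blood cells. Under DTPA Scamp5 reached 39.4, 43.2 and 40.1 TPM, against 4.93, 6.48 and 4.71 TPM in the controls and 0.18 TPM at 0 h (log2 difference 2.72). Scamp5 is a carrier membrane protein of secretory vesicles known from neurons. The lowest DTPA library was 6.40 times the highest control library for Srgn and 6.07 times for Scamp5. Lgmn, legumain, an asparagine-specific protease of lysosomes, averaged 139.9 ± 5.19 TPM under DTPA and 56.1 ± 3.51 TPM in control, with 12.9 TPM at 0 h. Rcn3, a calcium-binding protein of the endoplasmic reticulum, and Loxl3 are secretory too, and their values stand with the thresholds above.

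Cytoskeletal and motor genes included several known from muscle and nerve. Tubb2b had 75.4, 75.4 and 75.7 TPM under DTPA, against 16.9, 15.5 and 14.1 TPM in control and 3.91 TPM at 0 h (log2 difference 2.21). Tubb3 averaged 136 ± 11.04 TPM under DTPA and 33.9 ± 2.69 TPM in control, with 3.80 TPM at 0 h. Both are beta-tubulin isotypes best known from neurons. Of 11 other tubulin genes tested, 2 were higher under DTPA and 8 lower, with a median log2 difference of -0.72. Tubb1, the isotype of platelets and red cells, was higher (161 ± 0.682 TPM under DTPA against 110.1 ± 0.531 TPM in control, limma adjusted p = 7.7e-06), as was Tubb2a (85.6 ± 1.504 TPM under DTPA against 52.7 ± 3.78 TPM in control, adjusted p = 3.4e-05), while Tubb5 averaged 348 ± 12.2 TPM under DTPA and 735 ± 8.18 TPM in control (adjusted p = 5.5e-07). Under the 3 other scalings 3 of the 11 were higher and 8 lower.

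Actn3 stood at 48.8, 50.8 and 51.6 TPM under DTPA, 25.6, 21.9 and 21.8 TPM in control and 0.58 TPM at 0 h (log2 difference 1.09). Actn3 is the alpha-actinin of fast muscle fibres, which cross-links actin. Under DTPA Tnnc1 reached 25.8, 28.1 and 30.2 TPM, against 5.22, 3.62 and 4.93 TPM in the controls and 0.16 TPM at 0 h (log2 difference 2.38). Tnnc1 is the troponin C of heart and slow muscle, a calcium sensor. Both genes were below 1 TPM at 0 h, and Tnnc1 was low in all controls. Fhod1, a formin that remodels actin filaments, averaged 28.7 ± 3.56 TPM under DTPA and 12.1 ± 0.276 TPM in control. Pstpip2, an F-BAR protein whose loss gives autoinflammation in mice, averaged 22.4 ± 2.18 TPM under DTPA and 8.77 ± 1.04 TPM in control. The kinesin-related protein Stard9 averaged 15.5 ± 0.849 TPM under DTPA and 5.84 ± 0.446 TPM in control, and the dynein assembly factor Dnaaf1 8.89 ± 0.926 TPM under DTPA and 1.71 ± 0.333 TPM in control. The kinesin light chain Klc3 was the third lowest gene of the set.

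Transporters and enzymes of lipids and retinoids were also among the 77 genes. Slc43a2 had 84.8, 96.5 and 94.5 TPM under DTPA, against 13.4, 12.1 and 14.0 TPM in control and 2.17 TPM at 0 h (log2 difference 2.71). Slc43a2 carries neutral amino acids across the plasma membrane, and its lowest DTPA library was 6.04 times its highest control library. Slc26a11 stood at 79.8, 89.8 and 93.2 TPM under DTPA, 41.6, 40.7 and 41.3 TPM in control and 2.91 TPM at 0 h (log2 difference 1.07). Slc26a11 is an anion transporter, and the corresponding ratio was 1.92. Under DTPA Pitpnm2 reached 282, 334 and 335 TPM, against 86.3, 78.5 and 78.6 TPM in the controls and 23.4 TPM at 0 h (log2 difference 1.95). Pitpnm2 is a membrane-bound transfer protein for phosphatidylinositol. Mppe1, which trims the glycan of lipid-anchored proteins in the secretory pathway, averaged 238 ± 13.6 TPM under DTPA and 101 ± 9.77 TPM in control. Gdpd3, a lysophospholipase D, averaged 97.7 ± 0.756 TPM under DTPA and 43.3 ± 4.35 TPM in control, and Chpt1, the cholinephosphotransferase of phosphatidylcholine synthesis, 34.5 ± 1.16 TPM under DTPA and 11.5 ± 0.431 TPM in control. Gramd1c, a sterol transfer protein at contacts of the endoplasmic reticulum, averaged 13.4 ± 1.05 TPM under DTPA and 5.90 ± 0.166 TPM in control, and Hsd17b11, a dehydrogenase of lipid droplets, 28.1 ± 0.546 TPM under DTPA and 9.01 ± 0.850 TPM in control, in DTPA and control libraries.

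The levels of Dhrs3 were 150.2, 164 and 157 TPM under DTPA, 61.7, 59.1 and 62.0 TPM in control and 0.23 TPM at 0 h (log2 difference 1.35). Dhrs3 reduces retinaldehyde to retinol, and it had one of the widest ranges between 0 h and control. Padi3 had 166, 175 and 177 TPM under DTPA, against 59.3, 57.0 and 59.5 TPM in control and 2.75 TPM at 0 h (log2 difference 1.54). Padi3 is a peptidylarginine deiminase, which turns arginine in proteins into citrulline. No relative of Padi3 reached the filter of the fit. C77080 stood at 288, 323 and 331 TPM under DTPA, 123, 109 and 102 TPM in control and 46.8 TPM at 0 h (log2 difference 1.49). The abundant gene Fam222b averaged 233 ± 17.4 TPM under DTPA and 93.7 ± 3.12 TPM in control. Tcp11l2 averaged 132 ± 1.32 TPM under DTPA and 59.1 ± 1.85 TPM in control. C77080, Fam222b and Tcp11l2 are given by level alone.

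The 15 unnamed genes were mostly low, and only Gm13091 and Gm42814 averaged above 50 TPM under DTPA. Under DTPA Gm13091 reached 184, 191 and 214 TPM, against 91.2, 74.9 and 95.6 TPM in the controls and 2.16 TPM at 0 h (log2 difference 1.16). It is annotated antisense inside Rere, whose own level was 200.3 TPM under DTPA and 199 TPM in control. The levels of Gm47985 were 17.2, 13.1 and 18.1 TPM under DTPA, 1.64, 1.51 and 1.70 TPM in control and 0.3 TPM at 0 h (log2 difference 2.71). It is annotated as protein coding and had the smallest step with differentiation in the set. Gm26622 had 9.63, 13.3 and 7.47 TPM under DTPA, against 1.10, 0.58 and 2.30 TPM in control and 0 TPM at 0 h (log2 difference 2.26). This processed pseudogene rested on an estimated 16 to 27 reads per DTPA library and 1 to 4 per control library. The nuclear ribosomal RNA n-R5s40 rested on an estimated 6 to 12 reads per DTPA library and 1 to 4 per control library. Pseudogenes and ribosomal copies can share reads with near-identical genes, and how such reads were counted is not given in the sources used here.

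Several members overlap another gene on the opposite strand, and reads of the pair cannot be told apart unless the counting used the strand. The sources used here do not give the strand setting. For Mir451a and Mir451b, which share all 72 bp on opposite strands, reads were listed for Mir451a and Mir451b stood at 0 in every library. Whether the reads of the pairs below were divided by strand in the same way was not tested. Cuta covers 39.3% of the exon bases of Phf1 and did not pass the threshold between DTPA and control (95.3 TPM under DTPA against 93.2 TPM in control, limma adjusted p = 0.771). Cyren covers 37.0% of Tmem140, Ercc2 28.1% of Klc3 and Taf1c 20.7% of Dnaaf1, and none of these 3 was called either (adjusted p = 0.054, 0.581 and 0.562). Gm28592 covers 33.0% of Phlda1, and Gnal 23.6% of Mppe1, both at under 3 TPM in every library. Sapcd1, which covers 12.7% of Vwa7, was lower under DTPA (459 TPM under DTPA against 609.9 TPM in control, adjusted p = 0.00039), and Htra2, which covers 11.6% of Loxl3, was higher by 0.34 on the log2 scale (adjusted p = 0.00066).

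Some members lie side by side in the genome. Within 100 kb of each other stood 18 of the 77 genes, in 8 groups with 10 neighbouring pairs, of which 7 are on the same strand and 6 are under 2 kb apart. On chromosome 7, Gdpd3, Ypel3 and Tbx6 follow each other on the same strand, with gaps of 1305 and 968 bp, and their levels under DTPA ran from 26.5 TPM for Tbx6 to 651 TPM for Ypel3. The genes on either side, Mapk3 and Ppp4c, had log2 differences between DTPA and control of 0.15 and 0.00 (limma adjusted p = 0.0497 and 0.956), so Mapk3 was just past the threshold. Fes and Furin, also on chromosome 7, are 638 bp apart on the same strand, and beyond them Man2a2 was higher and Blm lower under DTPA, with log2 differences of 0.88 and -1.27 (limma adjusted p = 7.6e-05 and 7.9e-06). Between Mir451a and Fam222b on chromosome 11, 21418 bp apart, lies Eral1 on the other strand, which was lower under DTPA (29.9 ± 1.48 TPM under DTPA against 46.1 ± 3.08 TPM in control, adjusted p = 0.00013). Gna15 and the long intergenic RNA Gm47697 start back to back 1185 bp apart on opposite strands of chromosome 10, and S1pr4 beyond Gna15 was higher under DTPA by 1.95 (limma adjusted p = 4.9e-06) though it stood lower in control than at 0 h. The other groups were Art4 with Gm44069, Vwa7 with Ly6g6f, Fndc5 with C77080, and Gm28188 with Gm28187. Over all members, the nearest tested neighbours that are no members numbered 134, of which 38.1% were higher and 34.3% lower under DTPA, with a median log2 difference of 0.01, beside 21.7% and 36.4% over all tested genes with a median of -0.09.

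**Figure D4:**
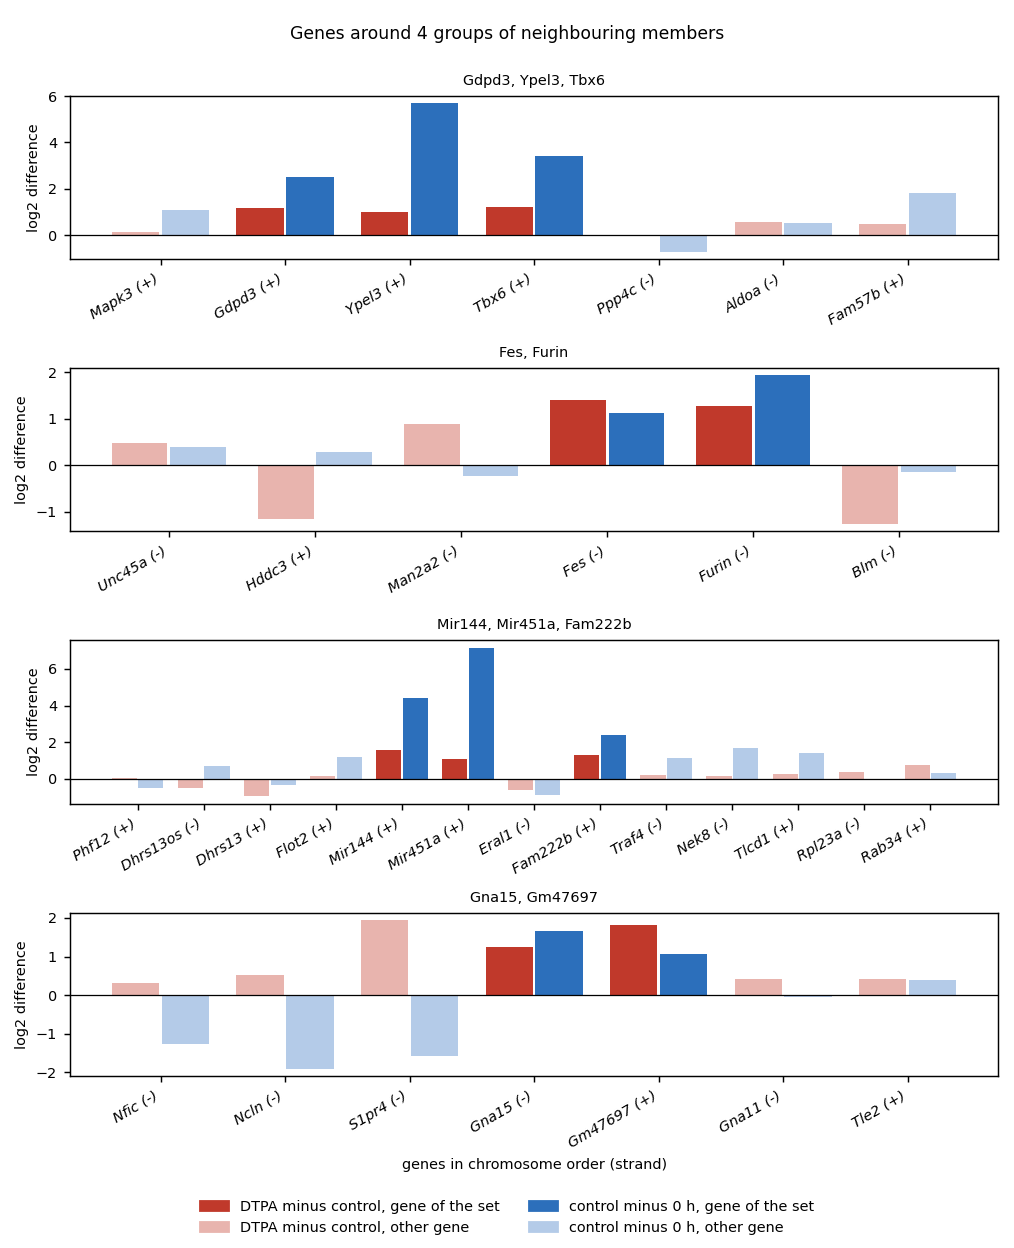
Log2 differences of genes in chromosome order around 4 groups of neighbouring members, with DTPA minus control in red and control minus 0 h in blue, members in dark and other genes in pale colours, leaving out small nucleolar RNAs and genes whose mean stayed under 1 TPM in both groups at 24 h. In DTPA minus control, Eral1 between Mir451a and Fam222b stands at -0.61, and S1pr4 beside Gna15 at 1.95, above Gna15 at 1.24.

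The pathways around the members were followed in 16 lists, whose genes were chosen with earlier results of these data known, so their counts are no independent evidence. Of 424 genes on them that were tested and are no members, 161 were higher under DTPA and 149 lower in limma's fit, or 37.97% and 35.14%. The shares over all tested genes were 21.7% higher and 36.4% lower. Every named example below kept its direction and its call in each alternative in which it was tested. The examples were picked as called genes with the largest change of their list, which made this likely. The megakaryocyte and platelet list had 14 of 16 genes higher and none lower, with a median log2 difference of 0.80. Itgb3, the platelet integrin beta 3, averaged 15.3 ± 0.706 TPM under DTPA and 2.18 ± 0.202 TPM in control (adjusted p = 6.4e-07), and Gp1ba, the platelet receptor for von Willebrand factor, 26.5 ± 2.501 TPM under DTPA and 7.17 ± 1.53 TPM in control (adjusted p = 3.5e-05). Nbeal2 and Plek of the same list had log2 differences of 1.60 and 1.43. In the comparison of control with 0 h, 11 of the 20 list genes tested were lower in control and 3 were higher, each by a log2 difference of at least 1, a floor not used for the counts between DTPA and control.

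Lists close to single members went as follows. Of 16 integrin, tetraspanin and adhesion genes beside Itgb2, 11 were higher and 4 lower, with a median of 0.42. Icam2, a ligand of beta 2 integrins, averaged 42.0 ± 0.445 TPM under DTPA and 7.88 ± 0.737 TPM in control (adjusted p = 2.8e-07), and Selplg, Icam1 and Cd37 had log2 differences of 1.77, 1.15 and 0.99. Of 32 small GTPase and actin genes beside Rnd2, 14 were higher and 11 lower, with a median of 0.04. Vav1, the exchange factor of blood cells, averaged 108 ± 4.63 TPM under DTPA and 13.8 ± 0.890 TPM in control (adjusted p = 6.7e-08), Arhgap9 was higher by 1.59, and Diaph3 had -1.46. Of 23 MAPK feedback and immediate early genes beside Jun, 10 were higher and 5 lower, with a median of 0.13. Egr1, an early response factor, averaged 32.6 ± 1.45 TPM under DTPA and 7.43 ± 0.319 TPM in control (adjusted p = 2.8e-07), Rasal1 and Ier5 had 1.00 and -0.78, and the list's count of higher genes was 6 without DTPA replicate 2 and 5 without DTPA replicate 3. Itgb2, Rnd2 and Jun rose from 0 h by the rule. At 0 h, Icam2 had 54.3 TPM, Selplg 18.7 TPM, Cd37 37.1 TPM, Arhgap9 24.7 TPM and Egr1 36.5 TPM, each above its control mean. Below their control means at 0 h stood Icam1 at 0.58 TPM and Ier5 at 12.1 TPM.

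Genes of growth control and turnover were mixed. Of 30 CDK inhibitors and antiproliferative genes, 13 were higher and 9 lower, with a median of 0.13, among them Txnip at 1.18, and Rbl1, Gadd45b and Cdkn2c at -2.14, -2.29 and -0.97. Of 25 p53 target genes, 13 were higher and 4 lower, with a median of 0.24 (2 lower without control replicate 2 and under the other scalings), Bbc3 at 0.93, Eda2r at 0.84, Zmat3 at 0.82 and Gtse1 at -1.68. Of 42 autophagy, mitophagy and lysosome genes, 17 were higher and 8 lower, with a median of 0.06, and under median-of-ratios scaling 24 and 3. In control against 0 h, 27 of 42 tested were higher and 1 lower by at least 1 on the log2 scale, again unlike the counts for DTPA. Atg2a, a lipid transfer protein of autophagy that lay just outside the rule, averaged 163 ± 17.4 TPM under DTPA and 81.0 ± 2.79 TPM in control (adjusted p = 2.8e-05), and Ulk1, Atg14 and Tfeb had 0.84, 0.79 and 0.78.

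Among signalling lists, 38 cytokine receptor and feedback genes had 17 higher and 10 lower, with a median of 0.15, Kit at 1.98, Il2rg at 1.55, Socs1 at 0.97 and Socs3 at -1.05. The 15 TGF-beta, BMP and Id genes had 4 higher, Tgfb1, Tgfbr1, Bmpr2 and Smad5, and 2 lower, with a median of 0.01, and none was lower without control replicate 1, control replicate 2, DTPA replicate 2 or DTPA replicate 3, and 1 without control replicate 3. The 16 interferon response genes had 6 higher and 4 lower, with a median of 0.00, H2-D1 at 1.22, Irf2 at 0.58, Trim25 at 0.48 and Ifi35 at -0.73. The 30 erythroid transcription factors and corepressors had 11 higher and 10 lower, with a median of 0.04. Gata1, whose reads in this line can come from the fusion, averaged 1305 ± 118 TPM under DTPA and 3164 ± 93.1 TPM in control (adjusted p = 3.8e-06), and Spi1, Myb and E2f2 had 1.45, 1.25 and -2.59. Myb averaged 2.85 TPM under DTPA and 0.617 TPM in control, and 139 TPM was read at 0 h. It passed the filter only through the DTPA libraries, so nothing is read from its call.

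The remaining lists had more lower than higher genes, as did all tested genes, of which 36.4% were lower and 21.7% higher. Of 30 red cell membrane and skeleton genes, 7 were higher and 18 lower, with a median of -0.35. Slc4a1, the band 3 anion exchanger, averaged 73.0 ± 2.81 TPM under DTPA and 770.3 ± 3.71 TPM in control, with 45.6 TPM at 0 h (adjusted p = 8.3e-09), and it stood higher in control than at 0 h and lower under DTPA than in control. Dmtn, Rhd and Tmod1 had -2.26, -3.28 and -2.00. Of 19 zinc transporter and metallothionein genes, 5 were higher and 9 lower, with a median of -0.02, Slc39a10 at 2.94, Slc39a3 at -0.72, Mt1 at -3.65 and Mt2 at -7.66. Of 45 lipid and sterol genes, 10 were higher and 27 lower, with a median of -0.26, Abca1 at 2.14, Fads2 at -1.68, Fads1 at -1.22 and Elovl6 at -1.22. Of 37 hypoxia and glycolysis genes, 10 were higher and 19 lower, with a median of -0.18, Slc16a1 at -1.42, Pklr at -1.27, Pdk1 at -1.05 and Pdk3 at -1.04. All of these values are log2 differences between DTPA and control, and each named gene passed limma's threshold after adjustment. Under median-of-ratios scaling 8 membrane and skeleton genes were higher and 16 lower, and of the zinc genes 5 and 8. The lipid list then had 11 higher and 18 lower, and the hypoxia and glycolysis list 11 and 14. Over all tested genes that scaling gave 3246 higher and 3127 lower.

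**Figure D5:**
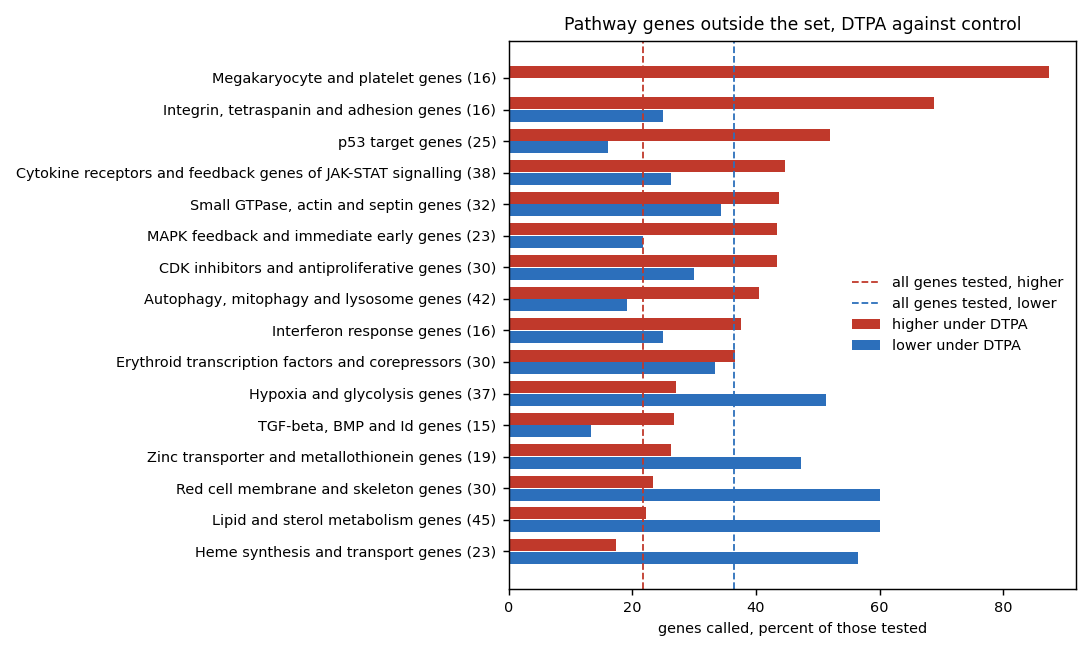
Share of the tested genes of each pathway list that were called higher (red) or lower (blue) under DTPA, members left out and the number tested in brackets, with dashed lines at the shares over all tested genes, 21.7% and 36.4%. The megakaryocyte and platelet list stands at the top with 14 of 16 genes higher, and the heme list at the bottom with 4 of 23.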

How the data were processed

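RNA-seq libraries from 7 samples were made with a stranded polyA kit, per the labels. Per the submitters' processing notes, reads were handled with Trimmomatic 0.33, FastQC, HISAT2 2.1.0, featureCounts and edgeR on mm10, and the deposited values are TPM per gene, made by the authors. The annotation and the strand setting of the counting are not given in the sources used here. Each table had 55487 rows, and the 114 symbols on more than 1 row were summed to give 55367 symbols. TPM values of low genes fell on steps of 1 read in 99.0% to 99.4% of cases within 0.1 reads, which gave the estimated depth.

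The log2(TPM + 1) values of the groups were compared in R 4.3.3 with limma 3.58.1, using Benjamini-Hochberg adjustment over all tested genes and a threshold of 0.05. A gene was tested between DTPA and control when at least 3 of the 6 libraries at 24 h reached 1 TPM, and between control and 0 h when the mean at 0 h or in control reached 1 TPM. The 0 h library has no replicate, so its spread was taken as that of the groups at 24 h. Log2 differences are those of the group means for members and those of limma for other genes. Fold changes on this scale understate those of low genes. The fit was tested on simulated data, and positions come from GENCODE M21.

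The members, pathway lists and gene families were chosen with earlier results of these data known, and the families after the members were seen. Every named member is given, with values in every library for the 12 highest by level and by each step, for members on a list and next to a threshold. Of each list up to 4 called genes with the largest change are named, apart from a few that are not reported here. Alternatives were other pseudocounts, filters, thresholds and scalings, no variance trend, a replicate block and leaving out each library.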

Additional observations from a re-analysis of the deposited data

How the results depend on the processing

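The set had 77 genes and 67 to 106 under a pseudocount of 0.5 TPM, another minimum level, an allowed overlap or another scaling, and 74 to 81 when 1 library was left out. It had 41 genes with a pseudocount of 5 TPM, 139 with a minimum log2 step of 0.8 and 21 with one of 1.5. These changes follow from construction, since a larger pseudocount shrinks the steps of low genes and the other 2 settings move the threshold itself. Quantile normalization took mt-Rnr1 out. Among single genes, lists and shares 176 values moved beyond their spread or by over 1.5 times and 2030 did not. Leaving out 1 library gave 1918 to 2312 genes higher and 3653 to 3909 lower between DTPA and control, 1766 to 1813 higher and 2864 to 2894 lower between control and 0 h, and 135 to 159 pathway genes higher and 131 to 143 lower. Replicate numbers of the 2 groups did not pair the libraries, since the deviations of same-numbered libraries correlated at -0.010, 0.024 and -0.0096, and with the replicate block 2274 genes were higher and 3888 lower. All 948 values of the 64 pathway genes chosen by the naming rule kept their direction and call. That rule took called genes with the largest change, which made this outcome likely. None of the 68 member steps followed across pseudocounts, scalings and left-out libraries was reversed. The members were chosen for steps of at least 1, so a reversal was unlikely from the outset. Of these 68 steps, 46 moved beyond their spread with a pseudocount of 5 TPM and 22 with one of 0.5 TPM. Quantile normalization moved 37, median-of-ratios scaling 32 and scaling without globin genes 11, and leaving out 1 library moved none. Between DTPA and control, lower calls outnumbered higher ones in the deposited scale, 4059 to 2415. Higher calls were slightly more under median-of-ratios scaling, 3246 to 3127, and quantile normalization, 3192 to 3111. The median log2 difference changed sign, from -0.09 to 0.02 and 0.01. MicroRNA targets had 1 lower and none higher, and the opposite under quantile normalization. With 36.4% of all tested genes lower in the deposited scale, nothing is read from these calls. Depth limits genes of few reads, such as Mir144, Gm26622 and n-R5s40.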
